A study of Mus musculus with 6 samples.

Results

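The synaptic vesicle and exocytosis genes described here are the synaptotagmins (Syt), syntaxins (Stx), vesicle-associated membrane proteins (Vamp), synapsins (Syn), SV2 proteins (Sv2), syntaxin-binding proteins (Stxbp), complexins (Cplx), synaptophysin with the synaptogyrins (Syp, Syngr), Munc13 proteins (Unc13) and RIM proteins (Rims). They were chosen by gene symbol alone, with no measured value, and 67 of the 23038 genes listed matched. Messenger RNA was sequenced from NSC-34, a mouse hybrid between neuroblastoma cells and motor neurons of the spinal cord. 3 libraries came from cells given control siRNA (siNC) and 3 from cells given siRNA against Qk (siQk), the gene of the Quaking RNA-binding proteins. The cells were grown in DMEM with fetal calf serum per the labels, with no other treatment named, and the study's methods describe differentiation by retinoic acid for other assays. The labels speak of biological replicates and of 3 different siRNAs against Qk, but do not say which library received which, so differences between siQk libraries may hold differences between siRNAs.

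Regulated exocytosis joins a vesicle to the plasma membrane through SNARE proteins. A VAMP protein on the vesicle and a syntaxin with SNAP-25 on the target membrane form the complex, SM proteins hold and assemble it, Munc13 and RIM proteins prime vesicles at the active zone, complexins bind the assembled complex, and synaptotagmins sense calcium. Other members of the same families serve the Golgi, endosomes and lysosomes of every cell, so a family name does not by itself mark a synapse.

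The stretch before an annotated start of 4 synaptotagmin genes is printed to show how promoters of one family can differ in base composition. The genes were chosen after their values were seen, as an abundant gene with few CG dinucleotides (Syt1), an abundant gene with many (Syt9), a gene near 0 with few (Syt8) and a gene at 0 with many (Syt16). Each sequence is the 250 bases before a RefSeq transcript start on the gene's own strand, from the GRCm38.p6 assembly, and capitals mark every CG. Syt1 lies on the minus strand at chr10:109010976-109011225 and holds 8 CG. Syt9 lies on the plus strand at chr7:107370540-107370789 and holds 40. Syt8 lies on the plus strand at chr7:142434727-142434976 and holds 2. Syt16 lies on the plus strand at chr12:73997527-73997776 and holds 30. Transcripts of these genes have several starts, and 5, 250, 127 and 153 bases of the Syt1, Syt9, Syt8 and Syt16 windows lie inside the span that RefSeq gives the whole gene.
Syt1: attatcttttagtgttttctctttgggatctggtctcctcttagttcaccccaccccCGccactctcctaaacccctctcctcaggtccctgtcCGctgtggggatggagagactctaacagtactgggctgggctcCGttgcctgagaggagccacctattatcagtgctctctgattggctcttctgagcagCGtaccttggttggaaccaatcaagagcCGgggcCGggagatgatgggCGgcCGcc
Syt9: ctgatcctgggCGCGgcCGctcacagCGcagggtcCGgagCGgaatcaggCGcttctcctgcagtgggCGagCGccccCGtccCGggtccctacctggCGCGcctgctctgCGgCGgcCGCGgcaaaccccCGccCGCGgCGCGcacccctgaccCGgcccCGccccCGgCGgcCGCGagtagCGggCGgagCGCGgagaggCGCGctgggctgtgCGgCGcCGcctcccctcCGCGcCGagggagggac
Syt8: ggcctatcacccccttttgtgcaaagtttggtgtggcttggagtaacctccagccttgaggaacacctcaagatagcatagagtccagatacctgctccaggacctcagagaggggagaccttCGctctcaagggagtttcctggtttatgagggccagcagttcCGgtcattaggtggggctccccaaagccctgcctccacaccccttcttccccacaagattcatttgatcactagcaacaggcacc
Syt16: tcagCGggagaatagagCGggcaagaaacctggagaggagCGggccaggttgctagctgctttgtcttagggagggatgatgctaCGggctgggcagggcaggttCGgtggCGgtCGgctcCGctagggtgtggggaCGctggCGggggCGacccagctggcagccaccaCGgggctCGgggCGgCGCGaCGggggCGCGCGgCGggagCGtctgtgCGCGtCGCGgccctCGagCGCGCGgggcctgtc

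Library totals ran from 43000503 to 53565950 counts, and the 12665 genes with a mean log2 CPM (counts scaled to the library's total) above 0 were tested. Qk, the targeted gene, had 9.68, 8.18 and 14.9 RPKM (counts relative to exon length and library total) in siNC and 1.39, 1.71 and 1.10 RPKM in siQk. Its log2 fold change of siQk over siNC was -3.0 (SE 0.34, adjusted p = 0.0149 by edgeR's quasi-likelihood test), so the libraries lay on the side their labels give. siNC replicate 3 and siQk replicate 2 stood furthest from the rest. Compared library by library over all genes, chi-square per degree of freedom, which is near 1 for sampling noise alone, was 95.9 to 167 for pairs with siNC replicate 3, 117 to 177 for pairs with siQk replicate 2 and 21.3 to 101 among the other 4 libraries. The range for siNC replicate 3 overlapped that of the other 4, so it stood apart less clearly than siQk replicate 2. No 2 libraries were copies of each other.

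The neuron label was met in part. Of 9 neuron markers, 6 had a mean above 1 RPKM, led by Tubb3 at 277 RPKM over the 6 libraries, while Stmn2, Dcx and Rbfox3 were under 0.1 RPKM. The summed neuron markers were 575, 595 and 300 RPKM in siNC and 617, 421 and 554 RPKM in siQk, lowest in siNC replicate 3. Of 5 motor neuron markers, 2 were above 1 RPKM (Isl1 and Slc18a3), and Mnx1, Chat and Slc5a7 were near 0. Their sum was 6.61 to 7.11 RPKM in siNC and 9.57 to 12.1 RPKM in siQk, which did not overlap and rested mainly on Isl1. All 7 sympathetic or neuroblastoma markers were above 1 RPKM, with sums of 317 to 499 RPKM in siNC and 377 to 474 RPKM in siQk. Of 7 glial markers, 1 was above 1 RPKM and Aqp4 had no count, and the summed glial level was 3.19 to 3.70 RPKM in siNC and 1.83 to 2.93 RPKM in siQk. Of 6 fibroblast markers, 1 was above 1 RPKM (Pdgfrb), with sums of 3.13 to 5.34 RPKM in siNC and 0.972 to 2.98 RPKM in siQk. Of 5 blood and endothelial markers, 1 was above 1 RPKM (Pecam1), with sums of 4.18 to 6.68 RPKM in siNC and 3.22 to 4.81 RPKM in siQk. The part of these shifts in the values that follow was not tested, and in bulk RNA fewer cells of a type and less RNA per cell cannot be told apart.

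NSC-34 cells held transcripts of every family of the release machinery. Of the 67 genes, 52 had a mean above 1 RPKM over the 6 libraries and 32 a mean above 10 RPKM, and the 53 that were tested had a median percentile of 55.6 among all tested genes. The endosomal syntaxins Stx7 and Stx12, with 78.2 and 69.7 RPKM, and Vamp3, the cellubrevin of recycling endosomes, with 66.0 RPKM, were among the most abundant. Syt1, the calcium sensor of fast transmitter release, had 57.6 RPKM. Neighbours in this order differed by less than the siNC SD of at least 1 gene of the pair. The SDs were 10.9 RPKM in siNC and 12.6 RPKM in siQk for Stx7 and 18.4 RPKM and 8.04 RPKM for Syt1.

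**Figure D1:**
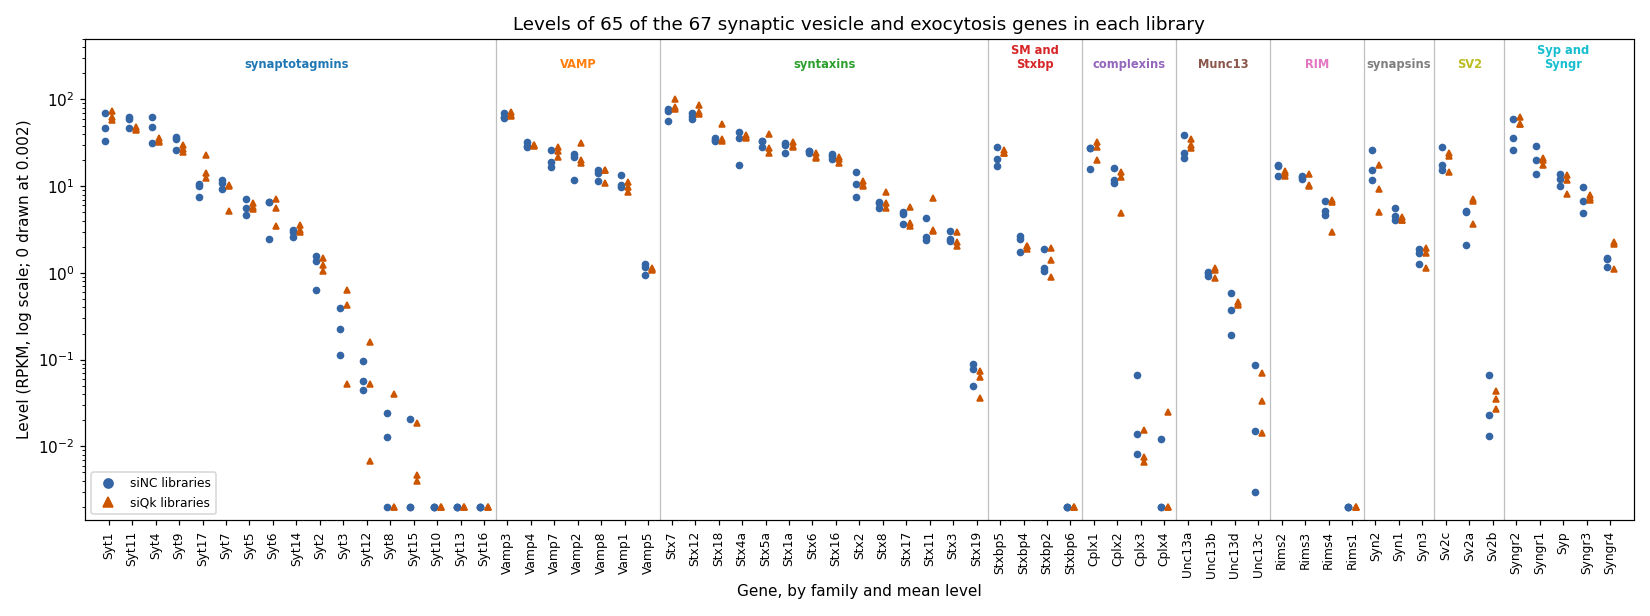
Level of 65 of the 67 genes in each library (RPKM, log axis), ordered by family and by mean, with circles for siNC and triangles for siQk and values of 0 drawn at 0.002. The 3 siNC and 3 siQk points of most genes mingle, and the families differ mainly in how far their least abundant members fall.

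Among the synaptotagmins, 10 of 17 genes were tested and 3 had no count. Syt1 had 46.3, 69.8 and 33.5 RPKM in siNC and 74.1, 58.4 and 63.2 RPKM in siQk. The siNC libraries spanned a wider range than the siQk libraries, with siNC replicate 3 the lowest of all, and the groups overlapped. Its fold change was 0.37 on the log2 scale (SE 0.30). Syt2, the sensor that many brainstem and spinal neurons use beside or in place of Syt1, lay at 0.641 to 1.58 RPKM. Syt1 exceeded Syt2 by 34.2 to 55.0 times in every library. Syt9, another member that can act as a fast sensor, had 26.1, 36.5 and 35.1 RPKM in siNC and 29.9, 26.7 and 24.7 RPKM in siQk, which overlapped. Syt7, linked to slower phases of release, had a mean of 9.56 RPKM.

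Syt17 was the only gene of the 53 tested with an unadjusted p under 0.05. It encodes a synaptotagmin without the membrane-spanning segment that most of the family have (Entrez 110058, GRCm38 chromosome 7, 118380713 to 118448583). Its level was 9.94, 7.52 and 10.7 RPKM in siNC and 12.3, 22.9 and 14.3 RPKM in siQk. Every siQk library lay above every siNC library, and siQk replicate 2 was far above the other siQk libraries. The log2 fold change was 0.78 (SE 0.32, adjusted p = 0.9996 by edgeR's quasi-likelihood test), which did not pass. Without siQk replicate 2 it was 0.47 and without siNC replicate 2 it was 0.62, and in both cases the unadjusted p was no longer under 0.05. With both libraries that stand apart left out it was 0.61, with an unadjusted p under 0.05. Its share of the summed synaptotagmin level was 3.16% to 5.04% in siNC and 5.39% to 11.2% in siQk.

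Syt11 and Syt4 are close relatives that are not classical calcium sensors, and both were among the abundant members. Syt11 (Entrez 229521, GRCm38 chromosome 3, 88744699 to 88775159) had 59.8, 63.3 and 46.3 RPKM in siNC and 48.4, 44.3 and 46.2 RPKM in siQk. In RPKM the groups overlapped because siNC replicate 3 lay within the siQk range. After TMM scaling, which sets libraries against each other by the bulk of their genes, every siQk library was below every siNC library. The log2 fold change was -0.31 (SE 0.12, adjusted p = 0.9996 by edgeR). It was -0.41 without siNC replicate 3 and -0.37 without both libraries that stand apart, and in both cases the unadjusted p was under 0.05 while the gene was not called. Syt4 had 48.5, 31.8 and 63.5 RPKM in siNC and 35.6, 32.7 and 33.4 RPKM in siQk. The siQk libraries were close together at the level of siNC replicate 2, and the difference came from the other siNC libraries. Its log2 fold change of -0.53 (SE 0.32) was -0.25 without siNC replicate 3 and -0.78 without siNC replicate 2, so it depended on which control was kept. Of the annotated exon bases of Syt4, 14.5% are shared with Gm26658 on the opposite strand, which the kit used cannot tell apart.

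Of the 15 syntaxins, 14 were tested. Stx7, Stx12 and Stx18, which serve late endosomes, recycling endosomes and the endoplasmic reticulum, were its most abundant members. Stx7 had 78.1, 57.1 and 72.9 RPKM in siNC and 77.5, 101 and 82.4 RPKM in siQk. Stx12 had 64.2, 60.2 and 69.0 RPKM in siNC and 68.3, 85.7 and 70.9 RPKM in siQk. Stx18 had 32.8, 34.4 and 36.0 RPKM in siNC and 35.1, 52.8 and 33.5 RPKM in siQk. For all 3 genes siQk replicate 2 was the highest library and the groups overlapped. Of the annotated exon bases of Stx18, 32.3% are shared with genes on the opposite strand, Nsg1 among them. That annotation holds 4593 exon bases, against 1562 in the deposited exon length, so the share need not hold for the counted bases.

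Stx1a, the syntaxin of the neuronal release site, had 31.9, 30.0 and 24.2 RPKM in siNC and 32.5, 29.1 and 28.6 RPKM in siQk, and its log2 fold change was 0.04 (SE 0.11). Stx16, a syntaxin of the trans-Golgi network (Entrez 228960, GRCm38 chromosome 2, 174076260 to 174099771), had 23.4, 22.5 and 20.5 RPKM in siNC and 20.7, 21.6 and 18.3 RPKM in siQk. As with Syt11, its groups overlapped in RPKM and did not overlap after TMM scaling, with a log2 fold change of -0.15 (SE 0.08). Stx11, known from the granules of cytotoxic lymphocytes, had 4.30, 2.60 and 2.37 RPKM in siNC and 3.07, 7.27 and 3.09 RPKM in siQk. Its log2 fold change of 0.51 (SE 0.48) rested on siQk replicate 2, and without that library it was -0.03.

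All 7 VAMP genes were tested. Vamp3 had 62.2, 61.2 and 70.6 RPKM in siNC and 64.9, 71.5 and 65.5 RPKM in siQk, a log2 fold change of 0.03 (SE 0.10). Vamp4, a trans-Golgi member, lay at 28.2 to 32.5 RPKM over all libraries, and its log2 fold change was -0.04 (SE 0.09). Vamp7, the VAMP of late endosomes and lysosomes, had 16.9, 18.8 and 26.4 RPKM in siNC and 25.7, 28.1 and 22.0 RPKM in siQk. Vamp2, the main vesicle SNARE of most synapses, had 23.5, 21.8 and 11.8 RPKM in siNC and 18.4, 31.7 and 20.1 RPKM in siQk, and exceeded its paralog Vamp1 by 1.15 to 2.81 times. Vamp3 exceeded Vamp2 by 2.26 to 5.98 times, highest in siNC replicate 3. In Vamp7 and Vamp2 the groups overlapped.

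Among the proteins that bind syntaxins or the complex, Stxbp5, which encodes the inhibitor tomosyn, had 16.9, 28.0 and 20.7 RPKM in siNC and 24.2, 26.4 and 23.9 RPKM in siQk. Stxbp4 was lower, at 1.72 to 2.68 RPKM. Cplx1 had 27.4, 27.6 and 15.8 RPKM in siNC and 28.0, 19.9 and 32.1 RPKM in siQk. Cplx2 had 16.1, 11.9 and 10.8 RPKM in siNC and 14.8, 4.95 and 12.8 RPKM in siQk. The lowest Cplx1 value was in siNC replicate 3 and the lowest Cplx2 value in siQk replicate 2. The ratio of Cplx1 to Cplx2 was 1.46 to 2.32 in siNC and 1.90 to 4.02 in siQk, which overlapped. Cplx3 and Cplx4, complexins known from retinal ribbon synapses, were not tested and had at most 9 counts in a library.

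Of the priming factors, Unc13a was the main Munc13 transcript, with 24.1, 38.4 and 20.9 RPKM in siNC and 29.6, 34.8 and 27.2 RPKM in siQk. It exceeded Unc13b by 20.6 to 39.7 times, and Unc13b itself lay at 0.878 to 1.15 RPKM. Unc13d, which serves granule release in blood cells, lay at 0.190 to 0.580 RPKM, only a little above the filter. Rims2 had 13.2, 16.9 and 17.5 RPKM in siNC and 14.8, 14.3 and 12.96 RPKM in siQk. Rims3 and Rims4, shorter family members that lack the Rab3-binding part, had means of 12.1 and 5.51 RPKM. Rims1, which encodes a full-length RIM, had no count in any library.

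On the vesicle itself, Syn2 was the main synapsin and the gene with the lowest fold change of the 53 tested (Entrez 20965, GRCm38 chromosome 6, 115134902 to 115282626). Synapsins tether vesicles to each other and to actin. Syn2 had 11.9, 26.4 and 15.6 RPKM in siNC and 17.6, 5.01 and 9.22 RPKM in siQk. The siNC and siQk ranges overlapped, with the highest value in siNC replicate 2 and the lowest in siQk replicate 2. Its log2 fold change was -0.77 (SE 0.62, adjusted p = 0.9996 by edgeR). It was -0.43 without siNC replicate 2, -0.44 without siQk replicate 2 and -1.35 without siQk replicate 1. Syn1 had 4.55, 5.59 and 4.10 RPKM in siNC and 4.38, 4.07 and 4.03 RPKM in siQk, and Syn3 lay at 1.13 to 1.96 RPKM. Of the annotated exon bases of Syn3, 14.1% are shared with Timp3 on the opposite strand. Syn2 exceeded Syn1 by 2.62 to 4.72 times in siNC and by 1.23 to 4.02 times in siQk.

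Sv2c was the leading SV2 gene, with 15.2, 28.5 and 17.4 RPKM in siNC and 23.9, 14.6 and 22.3 RPKM in siQk. Sv2a, the form found at most synapses, had 5.07, 5.21 and 2.10 RPKM in siNC and 7.13, 3.64 and 6.74 RPKM in siQk, and Sv2b lay at 0.0132 to 0.0662 RPKM. Syngr2, the cellugyrin of non-neuronal vesicles, had 59.98, 36.2 and 25.9 RPKM in siNC and 51.5, 63.1 and 52.3 RPKM in siQk. Syngr1, its neuronal relative, had 19.9, 28.8 and 13.7 RPKM in siNC and 20.3, 17.4 and 20.9 RPKM in siQk. Synaptophysin, a major membrane protein of synaptic vesicles, had 13.7, 12.1 and 10.0 RPKM in siNC and 13.5, 8.07 and 11.8 RPKM in siQk. In each of these 5 genes the groups overlapped. Of the annotated exon bases of Syp, 16.8% are shared with Gm14703 on the opposite strand, and of those of Syngr2 7.66% are shared with Gm20708 on the same strand.

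**Figure D2:**
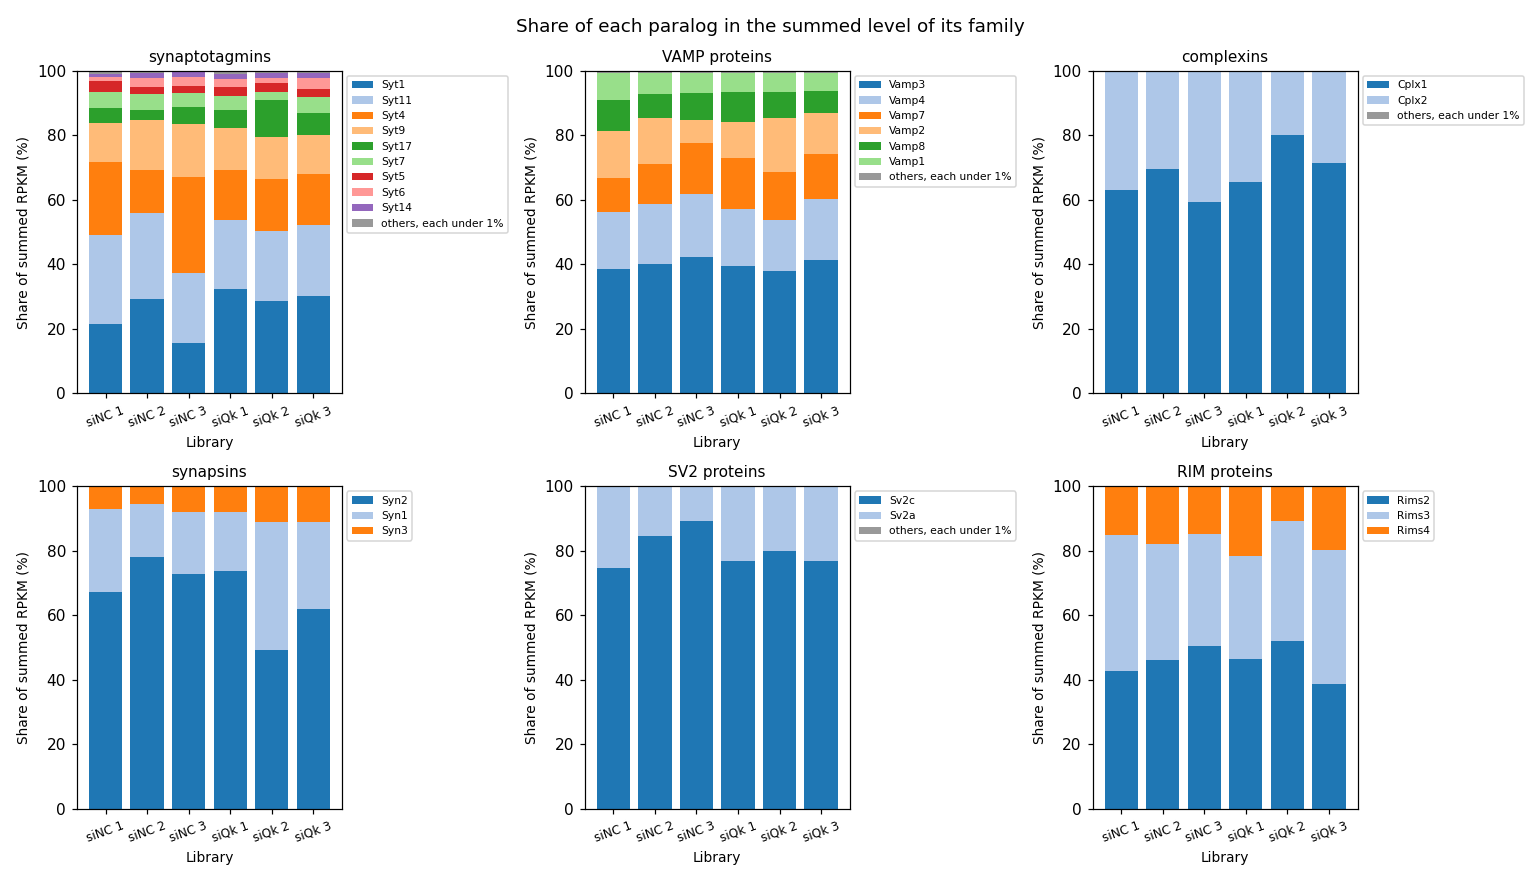
Share of each paralog in the summed RPKM of its family, in percent, for 6 families and each of the 6 libraries, with members that were under 1% drawn together in grey. Cplx1 and Sv2c held the larger part of their families in every library, while the share of Syn2 was lowest in siQk replicate 2.

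No family's summed level differed between the groups beyond the spread between libraries. Summed over the family, synaptotagmin level was 222 ± 13.6 RPKM (SD, n = 3) in siNC, against 214 ± 12.8 RPKM (SD, n = 3) in siQk. The summed syntaxin level was 340 ± 17.2 RPKM (SD, n = 3) in siNC, against 377 ± 45.3 RPKM (SD, n = 3) in siQk. The summed synapsin level was 24.3 ± 8.45 RPKM (SD, n = 3) in siNC, against 16.4 ± 6.97 RPKM (SD, n = 3) in siQk. Over the 10 families the lowest p of the two-sided exact permutation test was 0.3 before any adjustment, and with 3 against 3 libraries the smallest it can give is 0.1. All 3 synapsins and all 3 tested RIM genes had fold changes below 0, and all 3 tested Munc13 genes had fold changes above 0. None of these 9 genes had an unadjusted p under 0.05.

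The study depleted Qk to ask which transcripts depend on the Quaking protein. It reports few changes in transcript level in these cells and many in exon usage. Counts over whole genes, used here, do not measure exon usage. None of the 53 tested synaptic vesicle and exocytosis genes was called, where a call needed p under 0.01 together with an adjusted p (Benjamini-Hochberg, over all genes tested) under 0.1. 1 of the 12665 tested genes was called, Qk itself, which is 0.00790% of them. Without siNC replicate 1 its adjusted p by edgeR was 0.125 and no gene was called. The edgeR exact and likelihood-ratio tests each called 5 genes and DESeq2 called 19. The study names edgeR and these cutoffs, but not which of its tests, and also reports Snap23 among its few genes lower in siQk. At an unadjusted p under 0.05 the count was 1 of 53, Syt17, against 2.89% of all tested genes, and no other gene of the 53 passed. DESeq2 gave 3 of 53 (5.66%), Syt17, Syt4 and Syn2, against 3.63% of all tested genes. The groups did not overlap in 3 of 53 genes, Syt17, Syt11 and Stx16, against 8.52% of all tested genes. The count was 2 with upper-quartile scaling, 1 with library totals alone and 4 of 62 with no filter. No share over all genes is given for those fits. After TMM scaling, the 2 non-overlapping genes lower in siQk, Syt11 and Stx16, compare with 4.07% of all tested genes. An absolute log2 fold change above 0.5 was seen for 4 of 53 genes, Syt17, Stx11, Syn2 and Syt4, against 6.48% of all tested genes. The shares by edgeR, by overlap and by fold change were near or under those of all tested genes, and the share by DESeq2 was above.

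Fold changes of the 53 genes were small and centred on 0. They ran from -0.77 for Syn2 to 0.78 for Syt17, with 27 above 0 and 26 below. The median was 0.01 against 0.00 for all tested genes, and the median absolute value was 0.16 against 0.15. For 38 genes the log2 fold change lay within 0.25 of 0, and for none was it beyond 1. The median SE was 0.24, so single genes with differences of that size could not be told from 0. Larger differences went uncalled too, as outside the 53 genes for Napb at 0.84 (SE 0.16) and Snap23 at -1.23 (SE 0.33). The lack of a call therefore does not show that a gene was unchanged.

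**Figure D3:**
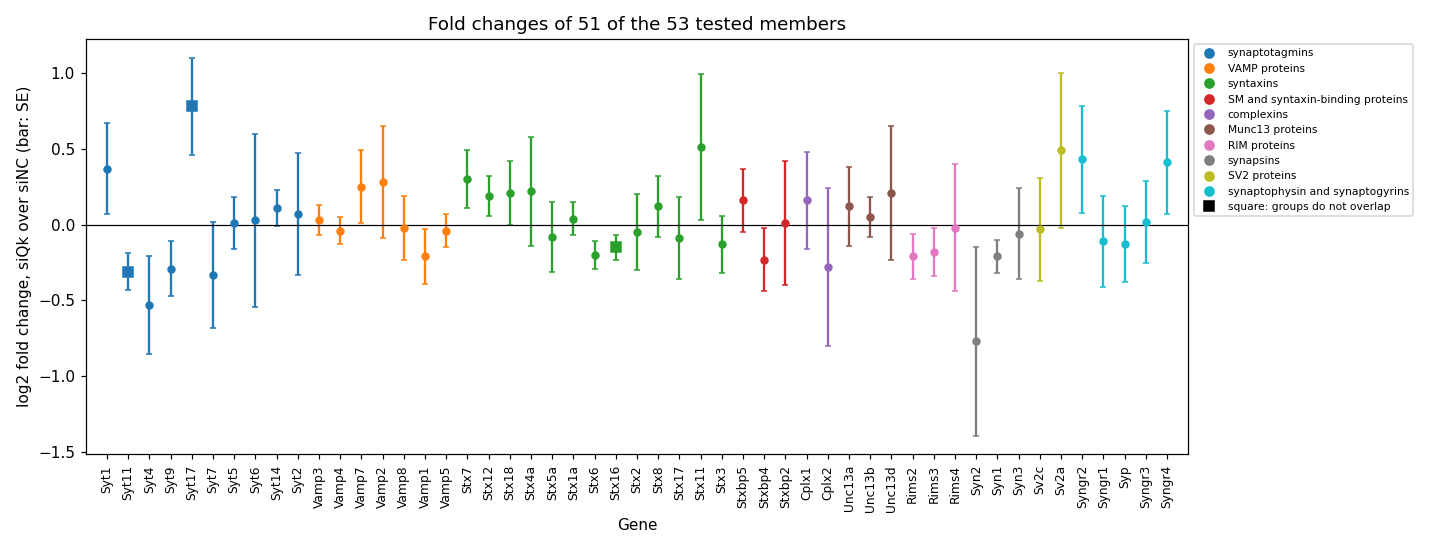
log2 fold change of siQk over siNC for 51 of the 53 tested genes, coloured by family, with bars of 1 SE. Squares mark Syt17, Syt11 and Stx16, whose groups did not overlap after TMM scaling, and most other bars reach across 0.

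**Figure D4:**
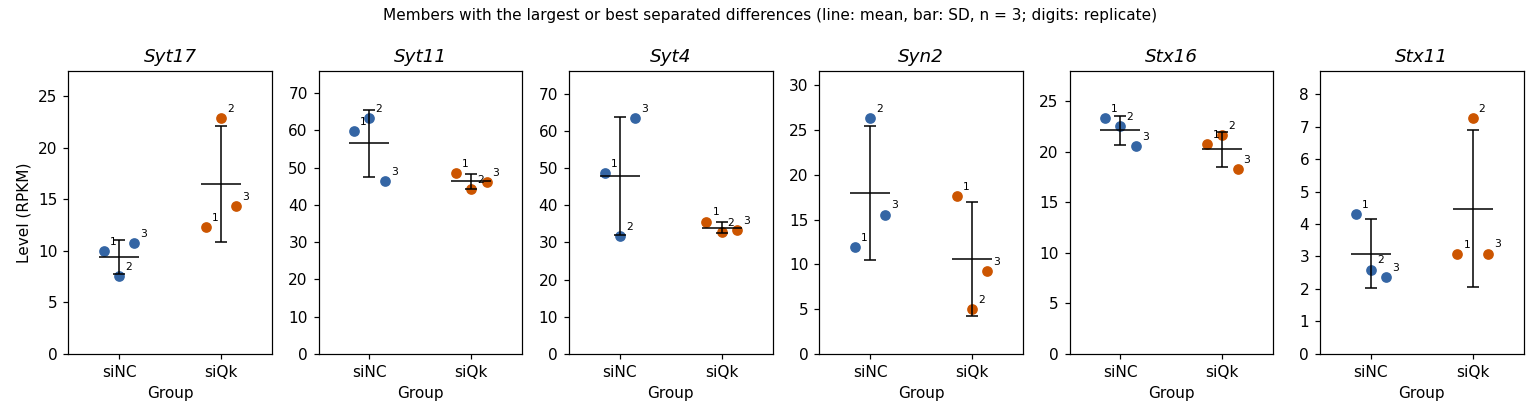
Level (RPKM, axes from 0) of Syt17, Syt11, Syt4, Syn2, Stx16 and Stx11 in each library, with replicate numbers, the mean as a line and the SD as a bar (n = 3). The high siQk values of Syt17 and Stx11 are both siQk replicate 2.

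Libraries within a group varied as much in these genes as in others. The median coefficient of variation was 17.9% in siNC and 13.04% in siQk, against 18.2% and 13.96% for all tested genes. The lowest of the 6 libraries was siNC replicate 3 for 18 of the 53 genes (34.0%, against 25.3% of all tested genes), siQk replicate 3 for 8 (15.1%, against 7.75%) and siQk replicate 1 for 1 (1.89%, against 8.39%). Syt1, Vamp2, Cplx1, Sv2a, Stx4a and Syngr2 were among those lowest in siNC replicate 3, which was also the library with the lowest neuron marker sum. The median deviation of the 53 genes from the siNC mean was 0.02, 0.05 and -0.07 in siNC and 0.14, -0.07 and 0.00 in siQk, on the log2 scale. With siNC replicate 3 and siQk replicate 2 both left out, the median log2 fold change was -0.03 and 5 of the 54 genes then tested had an unadjusted p under 0.05 (9.26%, against 6.19% of all genes tested in that fit), namely Syt17, Syt11, Vamp7, Sv2a and Syngr4. None was called.

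Of the 67 genes, 14 were not tested. 5 had no count in any library, Rims1, Stxbp6, Syt10, Syt13 and Syt16, as did 5050 of the 23038 genes listed. A count of 0 allows up to 3 counts per library, which is at most 0.0154 RPKM for Rims1 and at most 0.0378 RPKM for Syt10, and covers counting error only. The other 9 had some counts. Syt3 was the nearest below the filter, with a mean log2 CPM of -0.32 and 0.0523 to 0.632 RPKM. Just above it lay Syngr4, Unc13d and Vamp5, with mean log2 CPM of 0.67, 0.90 and 0.92.

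The base composition of the promoters was described for the 49 genes with a window in the RefSeq table. CG dinucleotides read the same on both strands and were counted in the 250 bases before the start. 11 of the 49 genes had more than 1 window, and the window with the most CG was used for every gene. The median was 15 for these genes and 11 for all 17615 genes with a window, and 57.1% of these genes held 15 or more, against 40.3% of all genes. Among tested genes the medians were 16 for the 38 synaptic vesicle and exocytosis genes and 17 for all. The 4 genes at a count of 0 with a window (Rims1, Stxbp6, Syt10 and Syt16) held 12 to 32, with a median of 24.5. Over all 3733 genes at a count of 0 the median was 2, and 7.66% of them held 15 or more. Syt16, printed above with its 30 CG, was thus at 0 with a window as rich in CG as that of Syt2 at 1.23 RPKM, while Syt1 at 57.6 RPKM and Stx7 at 78.2 RPKM held 8 and 7. Windows for Vamp2, Vamp3, Vamp7, Syt4, Syt5, Syt7, Syt12, Syt13, Syt17, Syn3, Syngr3, Syngr4, Rims2, Rims4, Unc13d and Cplx4 were not used here.

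**Figure D5:**
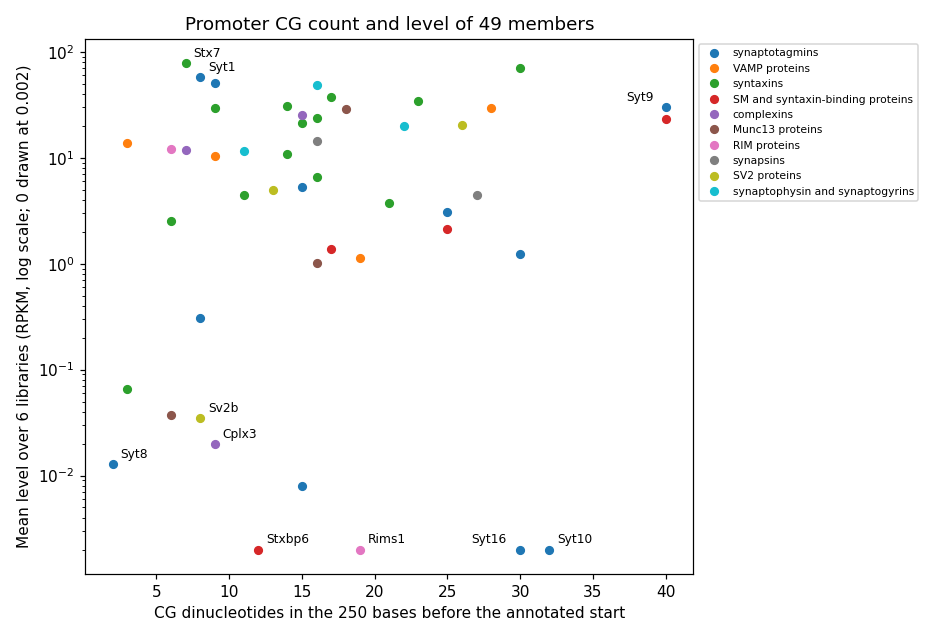
Number of CG dinucleotides in the 250 bases before the annotated start (horizontal axis) against the mean level over 6 libraries (RPKM, log axis, 0 drawn at 0.002) for 49 genes, coloured by family. Genes at 0 lie at 12 to 32 CG, and genes above 10 RPKM lie at 3 to 40.

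The partners of these proteins were described with a list of 81 other synaptic vesicle, SNARE and active zone genes, of which 70 were tested. 33 had fold changes above 0 and 37 below, with a median of -0.01, and none was called. Among the alternatives, the edgeR exact and likelihood-ratio tests called Snap23, and DESeq2 called Snap23 and Napb. The study, with edgeR, also reports Snap23 as lower in siQk. The unadjusted p was under 0.05 for 3 of the 70, against 2.89% of all tested genes. Snap23, the SNAP-25 relative that most non-neuronal cells use, had 17.8, 15.3 and 20.7 RPKM in siNC and 6.41, 11.2 and 5.796 RPKM in siQk, a log2 fold change of -1.23 (SE 0.33, adjusted p = 0.9996 by edgeR). All siQk libraries were below all siNC libraries. Its neuronal relative Snap25 had a log2 fold change of 0.25 (SE 0.14). Napb, which encodes beta-SNAP of the machinery that takes SNARE complexes apart, had 3.82, 5.20 and 5.14 RPKM in siNC and 8.43, 8.13 and 9.28 RPKM in siQk, a log2 fold change of 0.84 (SE 0.16, adjusted p = 0.9996 by edgeR). All siQk libraries were above all siNC libraries. Stxbp5l, a tomosyn relative at 0.432 to 1.27 RPKM, had a log2 fold change of 0.73 (SE 0.34) with overlapping groups, and its unadjusted p was no longer under 0.05 without siNC replicate 1 or 3 or without siQk replicate 1 or 3.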

How the data were processed

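Poly-A RNA of 6 NSC-34 libraries was prepared by the authors with an unstranded TruSeq version 2 kit, sequenced as paired reads, aligned (OLego) and counted over genes (Quantas). The submitters' processing notes name mm10, while the study's methods name the genome in more than 1 way. The deposited files give, per gene, expected counts (21.9% to 22.9% not whole), the exon length and the RPKM values that the authors computed from them with no scaling beyond the library's total. Replicates were independent cultures by the study's methods.

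Expected counts were rounded. Genes with a mean log2 CPM above 0 were kept (12665, with 99.9% of the counts), scaled by TMM (factors 0.956 to 1.02) and tested in 1 fit of all 6 libraries with the quasi-likelihood test of edgeR 4.0.16 in R 4.3.3. The SE of a fold change was taken from log2 CPM after TMM scaling (prior count 2), as it varied between libraries. Whether groups overlap was read from TMM-scaled CPM. Single values were tested with an exact permutation test, two-sided, over 20 arrangements. Alternatives were other scalings and filters, the exact and likelihood-ratio tests of edgeR, DESeq2 1.42.0, a replicate block and leaving out each library. Leaving out both libraries that stand apart was added after seeing the data. Scripts were tested on simulated data.

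The genes and lists were chosen with earlier results of these data known. Named are Qk, up to 3 genes per family with the highest mean RPKM, genes with an unadjusted p under 0.05, non-overlapping groups or an absolute log2 fold change above 0.5, those nearest the filter, those at 0, and, from each other list, the 6 genes lowest in p. Others (Syt2, Syt7, Syt8, Syt9, Stx1a, Stx4a, Vamp1, Vamp2, Cplx4 and Snap25) were chosen after their values were seen. Some genes are not reported by name here, but they remain in the counts and sums. Exon overlaps come from GENCODE release 21, gene positions and promoters from RefSeq on GRCm38.p6. The exon models of that release differ in length from those behind the deposited counts, so overlap shares need not hold for the counted bases.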

Additional observations from a re-analysis of the deposited data

How the results depend on the processing

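No synaptic vesicle or exocytosis gene was called under any of the 17 alternatives run. The count of all genes called was 5 with the edgeR exact test, 5 with the edgeR likelihood-ratio test and 19 with DESeq2, and 0 to 1 with 1 library left out (0 without siNC replicate 1). At an unadjusted p under 0.05 the count of these genes was 3 with no filter, 2 with the edgeR exact test, 2 with the likelihood-ratio test, 3 with DESeq2, 5 with siNC replicate 3 and siQk replicate 2 both left out, and 0 to 3 with 1 library left out (0 without siQk replicate 2). Non-overlapping groups were seen in 1 of 53 genes with library totals alone and in 4 of 62 with no filter. Shares over all genes are given above for the main fit and, for unadjusted p, for DESeq2 and for both libraries left out. The other counts have no such share beside them and are not read as a result about these genes. The median log2 fold change was -0.045 to 0.039 with 1 library left out. Qk was -3.19 to -2.67 with 1 library left out, and lost its call without siNC replicate 1 (-3.09, adjusted p = 0.125 by edgeR). The sign turned for Stx11 (-0.03 without siQk replicate 2 and -0.16 with both libraries left out, range -0.03 to 0.82) and Pcsk2 (-0.04 and -0.39, range -0.04 to 0.77), and without siNC replicate 2 for Chgb (0.42, range -0.60 to 0.42) and Chga (0.25, range -0.46 to 0.25). Snap23 was called by the edgeR exact test, the likelihood-ratio test and DESeq2 (adjusted p = 0.0725, 0.0699 and 0.0278) and Napb by DESeq2 (0.0900). With 1 library left out, Syt17 was 0.47 to 0.95, Syn2 -1.35 to -0.43 and Syt4 -0.78 to -0.25. The causes were not tested.

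With the replicate number as a block, Qk was -2.95 (adjusted p = 0.0112 by edgeR). The median log2 fold change of the 53 genes was then -0.003. In that fit 1 of the 53 had an unadjusted p under 0.05, with no share over all genes given beside it. Same-numbered libraries had correlations of their deviations of 0.213, 0.018 and -0.17, and the replicate numbers were therefore not read as pairs. Of the 53 genes, Syngr4 had the lowest mean log2 CPM, with at least 57.1 counts in each library, and Unc13d the lowest count in a single library, 36.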

Other observations

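Dense-core vesicle genes, which serve release of peptides and amines by the same SNARE machinery, were present beside the synaptic set. Of 11 listed, 10 were tested, 5 with fold changes above 0 and 5 below, and edgeR's quasi-likelihood test called none, with 1 of 10 (Ptprn2) at an unadjusted p under 0.05, where 2.89% of all tested genes were. DESeq2 called none either. Their summed level was 712, 1303 and 623 RPKM in siNC and 727, 834 and 856 RPKM in siQk, highest in siNC replicate 2. Chgb, which encodes chromogranin B, had 291, 828 and 239 RPKM in siNC and 295, 388 and 420 RPKM in siQk. Ptprn2, a membrane protein of secretory granules, had 1.27, 1.49 and 1.41 RPKM in siNC and 0.996, 0.769 and 1.02 RPKM in siQk. Its groups did not overlap, and its log2 fold change was -0.61 (SE 0.15, adjusted p = 0.9996 by edgeR). Without siNC replicate 2 its unadjusted p was no longer under 0.05. Scg2 had a log2 fold change of 0.41 (SE 0.26), Pcsk2 of 0.37 (SE 0.61), Chgb of -0.31 (SE 0.56), Chga of -0.24 (SE 0.44) and Pam, which amidates peptides, of 0.16. Without siQk replicate 2, Scg2 was 0.12 and Pam 0.05, and without siNC replicate 1 Pam was 0.07. The sign turned for Pcsk2 without siQk replicate 2 (-0.04) and without siNC replicate 2 for Chgb (0.42) and Chga (0.25).

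In the wider vesicle list, Dnm1, the neuronal dynamin that cuts endocytic vesicles from the membrane, had 33.0, 48.7 and 27.1 RPKM in siNC and 29.2, 15.1 and 27.7 RPKM in siQk, a log2 fold change of -0.61 (SE 0.38), which was -0.37 without siNC replicate 2 and also without siQk replicate 2. Rab3b, a vesicle GTPase, reached 5.66 RPKM in siQk replicate 2, while all other libraries lay between 0.715 and 1.58 RPKM. Its log2 fold change of 1.25 (SE 0.90) was 0.05 without that library. Erc2, an active zone scaffold, had a log2 fold change of -0.41 (SE 0.24), which was -0.25 without siQk replicate 2. Isl1, the only tested motor neuron marker with non-overlapping groups, had 4.83, 4.75 and 4.80 RPKM in siNC and 9.63, 7.80 and 8.33 RPKM in siQk, and it was called by DESeq2 and not by edgeR's quasi-likelihood test. Chat, another motor neuron marker, was too low to be tested, with 0.0297 to 0.0777 RPKM in siNC and 0.0997 to 0.141 RPKM in siQk, which did not overlap either. The remaining motor neuron markers did not rise in this way. Slc18a3, the only other one tested, had a log2 fold change of -0.09 (SE 0.21) with overlapping groups. Mnx1 and Slc5a7 were near 0, and their groups overlapped.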
